A study of Mus musculus with 2 samples.

Results

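The cells described here are 695 cells of mouse pancreatic ductal adenocarcinoma, out of 21361 that passed the filters in 1 single-cell library of 22178 barcodes, whose RNA counts placed them in a state marked by S100g, Epcam, Tm4sf20 and Ehf. They were chosen from their own counts in 3 steps. Cells needed 2000 or more unique molecular identifiers (UMIs, each counting 1 captured RNA molecule), 1000 or more genes, and a mitochondrial share of no more than 15% of UMIs. A cell was called an A cell where the UMIs of Pde10a, Plcb1, Galnt18, Arhgap15 and Ceacam1 summed to at least 2 and to at least 3 times the sum of S100a7a, Rgs20, Hs6st2, Ccbe1, Ctse and Mal. The opposite condition gave the B cells. Members were the A cells with 2 or more UMIs of the 4 marker genes and 0 of Tnc, Acta2, H2ac8 and Slc1a3, which are called the contractile side genes here. The 7816 A cells and 8936 B cells made up 36.6% and 41.8% of the cells, and 4609 cells were neither. The members were 8.89% of the A cells (exact 95% interval 8.27 to 9.54) and 3.25% of all cells that passed. The other 7121 A cells were the comparison throughout.

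All of these cells grew in culture from the line KPCY 6419c5, which comes from a mouse model of pancreatic cancer with a yellow fluorescent label. They carried BASELINE, a lineage recorder in which a Cas12a adenine base editor (Cas12a-ABE) makes A-to-G changes at guide-directed sites. Clones 76 and 84 had each been grown out of a sorted single cell, were taken after 19 days of editing, and were mixed 1 to 1 before loading. Cells were not assigned to clones, so A and B are classes of expression and not shown to be the clones. With 1 library and no replicate there is no test between conditions or classes: intervals below are exact 95% limits that cover counting error only, and "higher" and "lower" describe ratios of levels in this library. A second sample, of 5 clones, was not analysed here.

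S100g encodes calbindin-D9k, a small calcium-binding protein that carries calcium through the cytoplasm of absorptive cells of the gut. Epcam is a cell adhesion molecule of simple epithelia, Tm4sf20 is a membrane protein of the transmembrane 4 superfamily found in gut epithelium, and Ehf is an epithelial member of the ETS family of transcription factors. Pancreatic ductal carcinoma cells are known to move between epithelial and mesenchymal states, and some tumours also switch on genes of gut epithelium, among them galectins, mucins and brush border proteins. In the brush border, villin bundles the actin of the microvilli and cadherin-like proteins link their tips.

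Promoters of the genes that carried the state are shown so that the letters around their starts can be read beside their levels. The first 2 belong to markers in the rule. The other 4 belong to genes that the rule did not use: the brush border genes Vil1 and Cdhr5, Lgals4 as the most abundant gene of the intestinal list, and Apoc2 as the gene with the highest ratio. RefSeq's table on build GRCm38.p6 held an entry for 2 of the 4 markers, S100g and Epcam. Each line gives 270 bases on the gene's own strand, 5′ to 3′, of which the last 20 lie after the annotated start. Capitals mark matches, on either strand, to GGAAGT (the core bound by ETS factors such as Ehf), TTTATNG (bound by the intestinal factor Cdx2), CAAAGTCCA (HNF4) or GTTAAT (part of the HNF1 site). S100g lies at chrX:162964580-162964849 (minus strand), Epcam at chr17:87635729-87635998 (plus strand), Vil1 at chr1:74409134-74409403 (plus strand), Cdhr5 at chr7:141276767-141277036 (minus strand), Lgals4 at chr7:28833544-28833813 (plus strand) and Apoc2 at chr7:19677922-19678191 (minus strand).
S100g: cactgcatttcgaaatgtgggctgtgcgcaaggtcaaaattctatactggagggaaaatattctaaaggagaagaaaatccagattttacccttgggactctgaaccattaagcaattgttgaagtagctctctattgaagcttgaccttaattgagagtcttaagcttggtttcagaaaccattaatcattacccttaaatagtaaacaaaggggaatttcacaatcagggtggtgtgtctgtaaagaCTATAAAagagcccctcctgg
Epcam: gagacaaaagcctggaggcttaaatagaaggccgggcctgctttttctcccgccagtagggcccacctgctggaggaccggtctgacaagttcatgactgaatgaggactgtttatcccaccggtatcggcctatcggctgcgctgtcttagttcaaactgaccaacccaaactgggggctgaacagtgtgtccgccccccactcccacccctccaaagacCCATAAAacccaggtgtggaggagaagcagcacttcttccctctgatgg
Vil1: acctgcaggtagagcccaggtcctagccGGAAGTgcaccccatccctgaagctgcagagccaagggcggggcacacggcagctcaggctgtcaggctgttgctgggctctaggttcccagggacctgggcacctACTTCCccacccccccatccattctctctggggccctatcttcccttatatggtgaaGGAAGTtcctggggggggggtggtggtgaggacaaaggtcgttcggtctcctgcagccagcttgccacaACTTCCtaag
Cdhr5: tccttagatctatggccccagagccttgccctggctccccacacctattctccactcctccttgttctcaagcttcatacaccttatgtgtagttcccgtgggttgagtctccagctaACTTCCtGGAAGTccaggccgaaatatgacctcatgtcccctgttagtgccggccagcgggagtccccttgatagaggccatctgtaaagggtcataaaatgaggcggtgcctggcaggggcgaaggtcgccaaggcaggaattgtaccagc
Lgals4: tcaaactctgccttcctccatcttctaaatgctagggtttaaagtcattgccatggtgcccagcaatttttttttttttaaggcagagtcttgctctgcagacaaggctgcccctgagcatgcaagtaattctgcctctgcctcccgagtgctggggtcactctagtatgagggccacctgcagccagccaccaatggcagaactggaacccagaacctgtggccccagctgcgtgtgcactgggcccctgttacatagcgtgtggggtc
Apoc2: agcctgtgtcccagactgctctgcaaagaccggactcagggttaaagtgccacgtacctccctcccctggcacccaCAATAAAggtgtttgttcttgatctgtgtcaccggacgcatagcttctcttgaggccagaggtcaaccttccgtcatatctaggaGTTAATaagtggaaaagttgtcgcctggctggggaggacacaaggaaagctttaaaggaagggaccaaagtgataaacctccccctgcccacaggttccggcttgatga
S100g and Epcam each held 1 match to TTTATNG and none to GGAAGT in the 300 bases searched. Vil1 held 4 matches to GGAAGT and Cdhr5 held 2, side by side on opposite strands. Lgals4 held no match to any of the 4 motifs. Apoc2 held 1 match each to TTTATNG and GTTAAT, and 1 to GGAAGT that lies past the bases shown. These letters are common: GGAAGT was present in 23.8% of all 32851 promoters of 300 bases and in 18 of 63 promoters (28.6%) of the 47 matched genes that were 2-fold or more higher in the members. TTTATNG was present in 10.9% and 11.1%, GTTAAT in 7.10% and 11.1%, and CAAAGTCCA in 0.475% and 1.59%. A match is a description of the letters and not a measured site.

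The 4 markers chose the members, so their values are given as a description. A member held a median of 4 marker UMIs (quartiles 2 and 7, highest 50). At the edge of the rule, 207 members had 2 marker UMIs and 117 had 3. Just outside it, 453 A cells had 1 marker UMI and no contractile side UMI, and 641 had 2 or more marker UMIs and 1 contractile side UMI. S100g was the marker most often seen, with a UMI in 625 members (89.9%), and gave 64.2% of the marker UMIs. Ehf was seen in 47.2% of the members, Epcam in 40.9% and Tm4sf20 in 34.4%. More than 1 marker was seen in most members: 172 had 1 of the 4, 319 had 2, 150 had 3 and 54 had all 4. S100g was the only marker in 143 of the 172.

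A cells with an S100g UMI had each of the other markers more often than A cells without one, although most of them still lacked it. For this and for every level below, each cell was thinned at random to 2000 UMIs, the rule's own minimum, so that depth was equal and no cell was left out. Among the 1713 A cells with an S100g UMI after thinning, 14.2% had an Epcam UMI, against 3.33% of the 6103 without one. Tm4sf20 was seen in 13.1% and 3.15% of the same cells, and Ehf in 18.2% and 6.49%. In B cells, S100g was seen in 1.11% and Epcam in 0.649%. The shares of the members, 67.8% and 26.2%, were set by the rule and are given as a description. The unthinned medians were 5440.5 UMIs in B cells and 4287 in members. The same conditions on the markers and contractile side genes were met by 59 B cells (0.660%) and by 303 of the cells that were neither A nor B (6.57%).

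Most A cells with the markers were not members, because they also had a contractile side UMI. Of the 2182 A cells with 2 or more marker UMIs, 1487 (68.1%) had at least 1 UMI of Tnc, Acta2, H2ac8 or Slc1a3. In B cells, 7.58% (7.04 to 8.14) had such a UMI and 0.918% had 2 or more marker UMIs, at a median of 5440.5 UMIs per cell. The part of free RNA in these UMIs was not tested. A single UMI does not show that a cell expresses a gene, and the classes are sets of counts. The other A cells are therefore described in 3 classes. The contractile side (1902 cells) had 2 or more contractile side UMIs and no marker UMI, the mixed class (2698 cells) had at least 1 of each, and the low class held the remaining 2521. Membership also moved with depth: members were 14.5% of the shallowest of 4 equal depth classes of A cells and 6.86%, 8.40% and 5.78% of the next 3. The median was 4287 UMIs in members and 4736 in the other A cells before thinning.

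Members differed from the other A cells in few genes, and mostly upward. Levels are CPM, the usual depth-scaled unit, of a group's summed, thinned UMIs, and a gene was counted where either group reached 50 CPM. The 19 genes of the rule were left out. Of 3856 genes counted, 61 (1.58%) were 2-fold or more higher in the members and 12 (0.311%) were 2-fold or more lower. Over all of the alternative settings tried, these counts ran from 15 to 265 and from 3 to 89. Of the same genes, 51.8% stood above a ratio of 1 and 48.2% below it. The median log2 ratio over all of them was 0.01, and its 1st and 99th percentiles were -0.76 and 1.22. Each of the 61 genes was higher in members than in mixed cells and higher in mixed than in contractile side cells, and each of the 12 lower genes followed the opposite order. Over all counted genes, 35.6% and 31% stood in these orders. Nothing is read from the 61 and the 12, which were picked for differing between members and a comparison that holds those classes, and the rule cut the classes along the same sums.

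**Figure D1:**
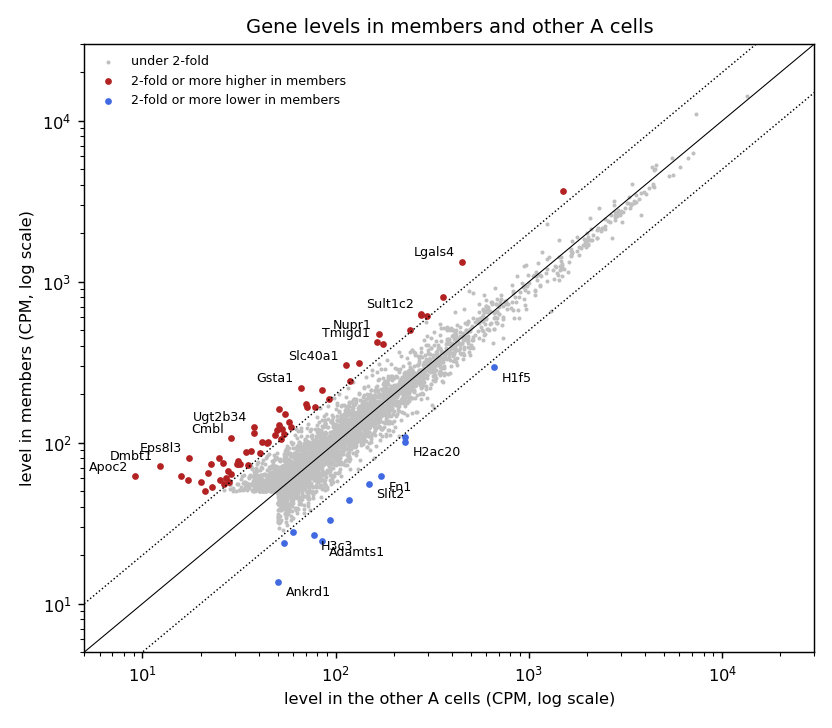
Level of each counted gene in members (vertical) against the other A cells (horizontal), both in CPM on log scales. The solid line marks equal levels and the dotted lines 2-fold; the 61 higher genes run from Apoc2 (61.9 against 9.20 CPM) to genes above 1000 CPM such as Lgals4, and the 12 lower genes include Ankrd1, Fn1 and H1f5.

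Genes of the gut absorptive cell were among the higher ones. Lgals4, a galectin of the gut epithelium, stood at 1332 CPM in members, 600 in mixed, 429 in low and 271 in contractile side A cells, and at 797 in B cells. The ratio to the other A cells was 2.95 (2.80 to 3.11). Cdhr5, a cadherin-like protein of microvillus tips, stood at 73.4 CPM in members and 22.6 in the other A cells (3.25-fold, 2.57 to 4.07). Vil1, which encodes villin, stood at 50.4 and 20.99 CPM (2.40-fold, 1.82 to 3.12). Eps8l3, of the Eps8 family of actin regulators, stood at 80.6 and 17.5 CPM (4.61-fold, 3.65 to 5.78). None of these 4 genes was lower in members than in any other class of A cells. Over the intestinal absorptive list, without the rule's genes, the summed level was 2541 CPM in members and 1415 in the other A cells, a ratio of 1.80 (1.73 to 1.86). B cells stood above both, at 2795 CPM. Lgals4 gave 1852 of the list's 3532 UMIs in members, and without it the levels were 1209 and 963 CPM, a ratio of 1.26 (1.19 to 1.32). All 8 counted genes of the list were above a ratio of 1, and 3 were past 2-fold. Ezr and Tm4sf4 stood at ratios of 1.02 and 1.03. Cdx2, the transcription factor that drives gut identity, was not higher, at 101 CPM in members and 114 in the other A cells (0.883, 0.738 to 1.05).

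The largest ratios were those of Apoc2 and Dmbt1. Apoc2, the apolipoprotein that activates lipoprotein lipase, stood at 61.9 CPM in members, 15.01 in mixed, 6.94 in low and 3.94 in contractile side cells. Its ratio to the other A cells was 6.73 (5.06 to 8.90), the highest of the counted genes. Dmbt1, a scavenger receptor protein secreted onto mucosal surfaces, stood at 71.9 against 12.4 CPM (5.82-fold, 4.51 to 7.48). Rnase4, a secreted ribonuclease, was 3.90-fold higher and Cmbl, a cytosolic hydrolase, 3.69-fold higher. Mgat4c, a glycosyltransferase, stood at 59.0 and 17.1 CPM, and Pik3c2g, a class II phosphoinositide kinase, at 79.9 and 24.9 CPM. Serpinb1a, an intracellular inhibitor of serine proteases, stood at 162 and 51.1 CPM, and Nepn, a secreted leucine-rich repeat protein, at 115 and 37.8 CPM. Zfp945, a zinc finger protein, was the other of the 15 highest, at 64.7 and 21.8 CPM. Pik3c2g was not limited to A cells, with 96.5 CPM in B cells. Nepn, Mgat4c and Zfp945 were each under 1 CPM there.

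Enzymes that conjugate and clear small molecules are described as families, which were grouped after their values had been seen. At the minimum of 10 CPM used for them, 3.01% of all 8803 genes were 2-fold or more higher and 53.7% were above a ratio of 1. Gsta1, a glutathione S-transferase, stood at 219 CPM in members and 65.9 in the other A cells (3.33-fold, 2.92 to 3.80), and Gstt3 at 74.8 and 26.3. Of 14 glutathione transferase genes at 10 CPM or more, 13 had ratios above 1 and 5 were past 2-fold, and their summed ratio was 1.62 (1.56 to 1.68). Ugt2b34, which attaches glucuronic acid, stood at 126 and 37.8 CPM (3.33-fold, 2.79 to 3.95). Sult1c2, a sulfotransferase, stood at 634 and 277 CPM, and was seen in 65.5% of members and 36.8% of other A cells. Its level in B cells was 9.51 CPM. All 6 cytochrome P450 genes of the Cyp2, Cyp3 and Cyp4 families at 10 CPM or more were above a ratio of 1, 5 of them past 2-fold, with a summed ratio of 2.64 (2.25 to 3.09). The wider list of NRF2 and glutathione genes, which holds the antioxidant enzymes, was nearly level as a sum, at 1.05 (1.04 to 1.06). Ftl1 gave 8757 of its 22647 UMIs in members and stood at 6300 and 7061 CPM. Of its 24 genes counted at 50 CPM, 21 were above a ratio of 1 and 3 below, and Gsta1 and Gstm2 were past 2-fold. Of all genes counted at that minimum, 51.8% were above 1 and 1.58% were 2-fold or more higher.

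Other genes past 2-fold were picked for naming after their values were seen. Slc40a1, the iron exporter ferroportin, stood at 304 CPM in members and 113 in the other A cells. Tmigd1, an adhesion protein of gut and kidney epithelium, stood at 422 and 163 CPM, and Nupr1, a stress-induced chromatin protein, at 473 and 168 CPM. Foxq1, a forkhead transcription factor, stood at 168 and 71.0 CPM. Tob1, an antiproliferative protein, stood at 167 and 78.5 CPM. Muc1, a membrane mucin in the gastric and mucous list, stood at 64.0 and 28.6 CPM, and Bmp2, a secreted signalling protein, at 74.1 and 31.1 CPM. Muc1 and Lgals2 were nevertheless higher in B cells, at 315 and 2776 CPM, than in members, at 64.0 and 409 CPM. Of the 61 genes, 52 were lower in B cells than in the other A cells and 4 were higher in B cells than in members, against 65% and 39.1% of all counted genes. Nothing is read from these counts, because the 61 were picked for being high in members and the other counted genes were not. Below the 50 CPM minimum, some gut genes with few UMIs, picked after their values were seen, had large ratios: Cyp2c55 stood at 20.1 and 1.26 CPM, Phgr1 at 46.0 and 3.93 CPM, Muc13 at 13.7 and 1.83 CPM and Gpa33 at 19.4 and 2.46 CPM. Other genes of mature absorptive cells were not detected at this depth: 8 genes of the intestinal list had 0 UMIs in the members, namely Fabp1, Dpp4, Guca2b, Slc5a1, Slc2a2, Apoa4, Espn and Slc26a3. Each of the 8 was at or below 0.492 CPM in the other A cells.

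The epithelial part of the label was borne out only in part. Over the epithelial adhesion list without Epcam, the summed level was 1794 CPM in members and 1383 in the other A cells, a ratio of 1.30 (1.24 to 1.35). All 8 counted genes of that list were above a ratio of 1 and none was past 2-fold. Jup (plakoglobin, a junction protein) stood at 77.7 and 47.7 CPM, and Spint2, an inhibitor of membrane serine proteases, at 336 and 233 CPM. Below the minimum, some genes of the list, picked after their values were seen, were past 2-fold on few UMIs: Cldn3, a claudin, stood at 17.3 and 6.60 CPM and Dsc2, a desmosomal cadherin, at 18.7 and 5.90 CPM. Cdh1 (E-cadherin) stood at 43.9 CPM (33.6 to 56.4) and 29.6 CPM. B cells had 118 CPM of Cdh1, more than either, and stood at 1807 CPM for the adhesion list. Keratins were split: Krt19 stood at 828 and 588 CPM and Krt8 at 1083 and 865, while Krt18 was lower at 827 and 1071 CPM, and the summed ratio was 1.08 (1.04 to 1.11). Keratins summed to 2923 CPM in members and to 7844 in B cells. Among transcription factors of the pancreas and foregut, Onecut2 stood at 462 and 296 CPM and Hnf4a, of liver and gut, at 109 and 86.0 CPM. Hnf4g, the relative of Hnf4a that is strong in gut and named here after its value was seen, stood at 273 and 164 CPM. The members are thus called by their marker genes and not by a cell type.

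On the lower side, the ratios furthest from 1 were those of Ankrd1 and Adamts1. Ankrd1, a target of the mechanical signalling factor YAP, stood at 13.7 CPM in members and 50.5 in the other A cells, 3.69-fold lower, and at 88.9 on the contractile side. Fn1, the matrix protein fibronectin, stood at 61.9 CPM in members, 148 in mixed, 143 in low and 245 in contractile side cells, 2.78-fold lower in members than in the other A cells. Adamts1, a secreted protease, stood at 24.5 and 84.6 CPM, and Slit2, a guidance ligand, at 55.4 and 149 CPM. Tenm3 (a teneurin) and Kirrel3, both cell surface adhesion proteins, were 2.28-fold and 2.11-fold lower. Tm4sf1, Efna5 and Sorbs2 completed the 15 lowest just short of 2-fold: Tm4sf1, a membrane protein, stood at 656 and 1297 CPM, Efna5, an ephrin, at 79.9 and 158 CPM, and Sorbs2, an actin-binding adaptor, at 165 and 323 CPM.

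Most genes of the related lists stood closer to 1. Over the mesenchymal list the summed ratio was 0.910 (0.885 to 0.934), and 5 of its 6 counted genes were below 1, 1 of them (Fn1) past 2-fold, with Vim (vimentin) at 1135 and 1392 CPM and S100a4 in the other direction at 1529 and 1170 CPM. Over the matrix list, of 9 counted genes 4 were above a ratio of 1, 5 below, and Fn1 was the gene past 2-fold. The list of YAP pathway genes and targets stood at 0.894 (0.847 to 0.942), with Ccn1 at 120 and 189 CPM, Ccn2 at 46.0 and 84.2, and its pathway member Tead1 nearly level at 147 and 156. Zeb1, a transcription factor of epithelial to mesenchymal transition, stood at 105 and 133 CPM. Although the rule required 0 UMIs of Acta2, the rest of the contractile list was level, at a ratio of 0.970 (0.950 to 0.991), with Tpm1 at 537 and 729 CPM but Mylk, myosin light chain kinase, at 158 and 114.

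Further lists were modestly higher or lower. Interferon-responsive genes had a summed ratio of 1.54 (1.47 to 1.61), carried by Ifitm2 at 875 and 488 CPM and Lgals3bp at 325 and 184, while Bst2 was lower at 77.7 and 103 CPM. In the vitamin D and calcium list, without S100g, Atp2b1, the plasma membrane calcium pump, was the counted gene, at 549 and 347 CPM. The cytokine Cxcl5 stood at 513 and 363 CPM. Ductal transport genes had a summed ratio of 0.860 (0.837 to 0.882), but 6 of the 9 counted genes were above 1 and 3 below. Those below included Tm4sf1 at 656 and 1297 CPM and Aqp5, a water channel, at 154 and 249 CPM. Those above included Tspan8 at 508 and 382 CPM. Heat shock genes stood at 0.841 and the p53 list at 0.854, and no counted gene of either list was past 2-fold. The p53 list holds Trp53 itself, which gave 452 of its 1201 UMIs in members, at 325 and 393 CPM. Only 3 of its 20 genes were counted (Trp53, Bax and Gdf15). Below the minimum its genes went both ways, with Mdm2 at 38.1 and 27.2 CPM, Ccng1 at 34.5 and 19.8, and Phlda3 at 6.47 and 13.3.

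**Figure D2:**
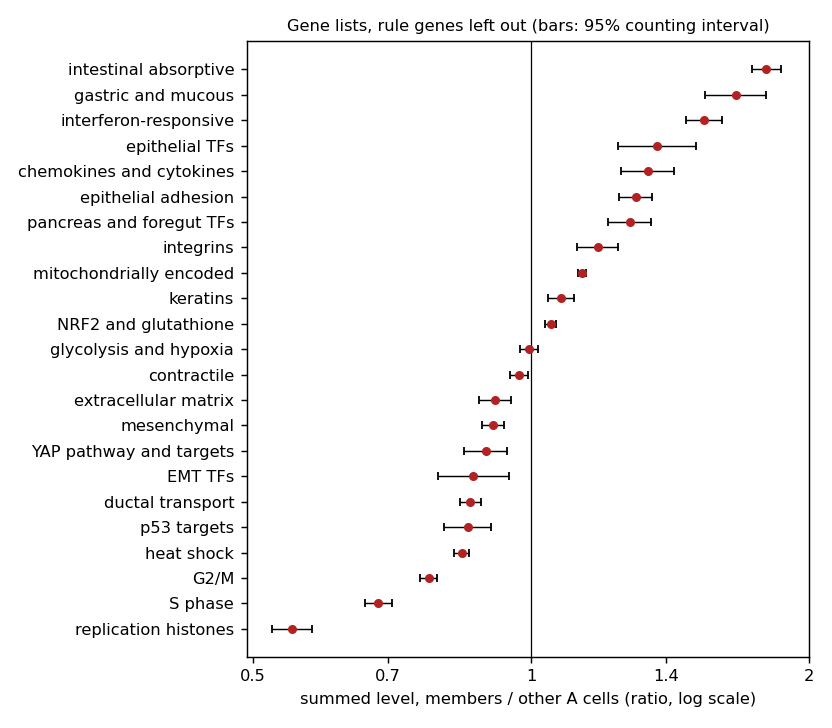
Summed level of 23 gene lists, each with genes at 50 CPM or more, in members divided by that in the other A cells (ratio, log scale), with the genes of the rule left out and bars for the 95% counting interval. Of the lists drawn, the intestinal list is the furthest above 1 (1.80, or 1.26 without Lgals4) and the replication histones are the furthest below (0.551); keratins and contractile genes lie near 1.

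Lgals4 was graded with the number of marker UMIs, where no contractile side UMI was present. In A cells with 0, 1, 2, 3 and 4 or more marker UMIs (986, 453, 207, 117 and 371 cells), Lgals4 stood at 423, 603, 831, 1068 and 1695 CPM. Lgals4 was thus already higher at 1 marker UMI, just outside the rule, than at 0. The intestinal list stood at 1409, 1554, 1787, 2120 and 3094 CPM over the same cells. Its rise up to 3 marker UMIs was that of Lgals4: without it the list stood at 986, 951, 957, 1051 and 1399 CPM, so that only the last class was apart. Cdhr5 stood at 21.3, 28.7, 50.7, 51.3 and 93.0 CPM. Fn1 ran the other way, at 149, 108, 91.8, 64.1 and 44.5 CPM, with limits that overlapped between neighbours from 1 marker UMI on. G2/M genes were level up to 3 marker UMIs and were lower only in the last class, at 8046, 8361, 8077, 8291 and 5900 CPM. S-phase genes were lower from 2 marker UMIs on, at 3677, 3552, 3053, 3132 and 2084 CPM, and replication histones had no steady order, at 1870, 1745, 1135, 1684 and 1128 CPM. Median depth over the 5 classes ranged from 4048 to 4440 UMIs before thinning. Within the members, the 172 with 1 marker seen had 1680 CPM of the intestinal list, the 319 with 2 had 2263, and the 204 with 3 or 4 had 3701. Without Lgals4 these were 971, 1066 and 1632 CPM. Keratins went with the same order inside the members, at 2340, 2807 and 3596 CPM. By the number of marker UMIs, however, keratins stood at 2666, 2544, 2466, 2526 and 3303 CPM, so that only the last class was higher than cells with 0.

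**Figure D3:**
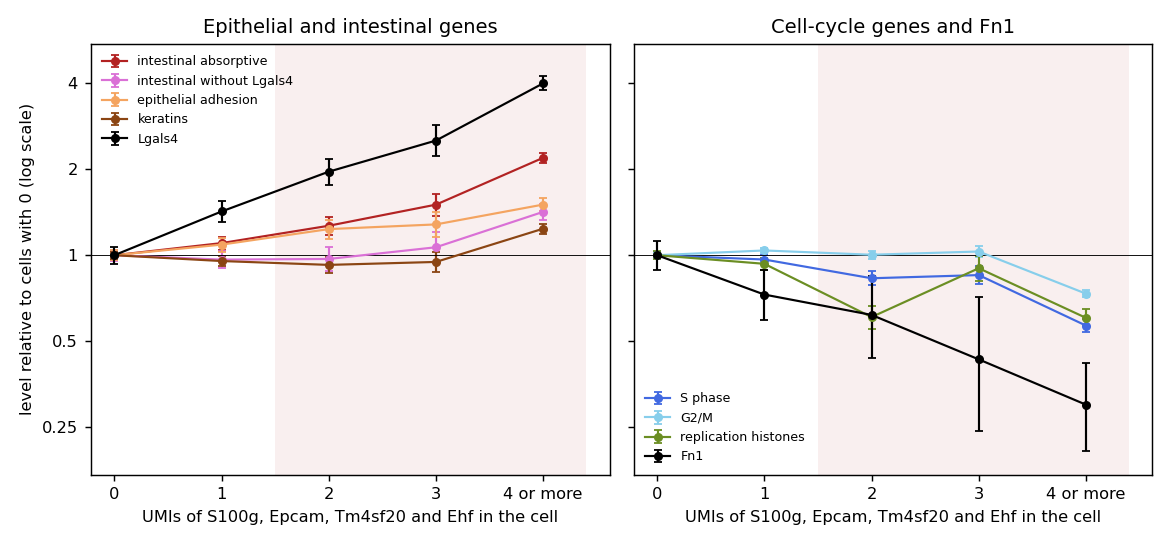
Summed levels in A cells without a contractile side UMI, by the number of marker UMIs in the cell, each divided by the level in cells with 0 (log scale; bars are 95% counting intervals; shading marks the members). Lgals4 increases at each step and Fn1 decreases. The intestinal list without Lgals4 is level up to 3 marker UMIs and higher at 4 or more, where G2/M genes are lower.

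Cell by cell, counts of the higher genes overlapped between the members and the other A cells. To read this in cells that had not picked the genes, 70 higher genes were chosen in a random part of the cells and counted in the rest. The 356 members read had a median of 26 UMIs of these genes among 2000 (10th and 90th percentiles 11 and 56). The other A cells had a median of 10 (4 and 24), mixed cells 14, low cells 8 and contractile side cells 7. Of the other A cells, 8.71% (7.80 to 9.70) were at or above the members' median. This was 18.3% in the mixed class and 1.90% on the contractile side. The 18 genes lower in members, chosen the same way, had medians of 2 UMIs in members and 5 in the other A cells. Whether the members form a separate population was not tested, and the classes were cut on few UMIs per cell.

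**Figure D4:**
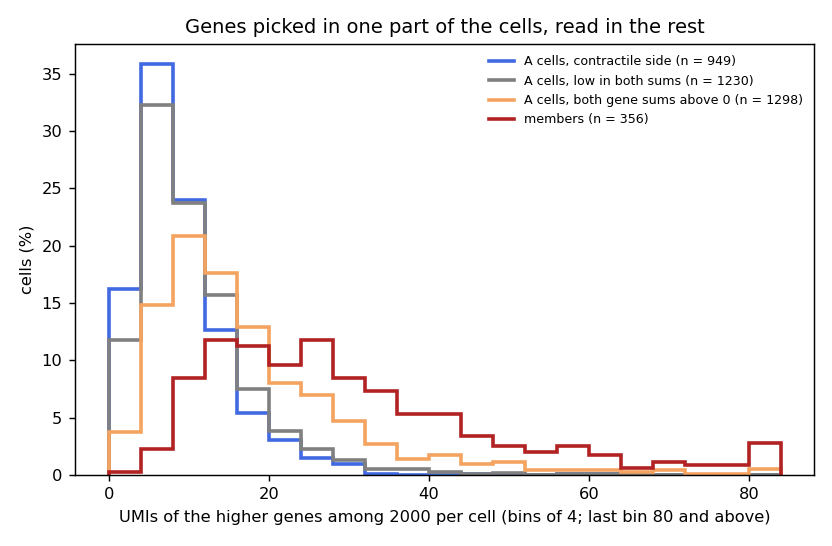
Share of cells (%) by the number of UMIs of 70 higher genes among 2000 per cell, in the members and the 3 other classes of A cells, read in cells that were not used to choose the genes. The members center on 26 UMIs with a long upper end, and overlap the mixed cells, which center on 14.

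Cell-cycle genes were lower in members as lists, with a subset of members near 0. The S-phase list, genes of DNA replication, had a summed ratio of 0.683 (0.660 to 0.707), and 27 of its 28 counted genes were below 1, none past 2-fold. The G2/M list, genes of mitosis, stood at 0.774 (0.758 to 0.791), with 41 of 42 below 1 and none past 2-fold. Both sizes moved with the settings: the log2 ratio of -0.37 for G2/M was -0.16 with a strict cell filter, -0.14 when thinned to 5000 UMIs and -0.077 without the contractile condition, and that of -0.55 for S phase was -0.38, -0.33 and -0.28. Rrm2, a subunit of ribonucleotide reductase, stood at 111 and 212 CPM, and Top2a, the topoisomerase of dividing cells, at 418 and 653. Top2a was seen in 38.1% of members and 60.5% of other A cells, and Mki67, the Ki-67 proliferation marker, in 37.1% and 51.9%. Histone genes were lower still: the list named replication histones stood at 0.551 (0.524 to 0.579), with 8 of its 10 counted genes below 1. The list also holds H1f0, which went the other way at 196 and 166 CPM, as did H2bc4 at 73.4 and 66.4 CPM. H3c3, H1f1, H4c4, H2ac20 and H1f5 were 5 of the 12 genes 2-fold or more lower. Kif18a, a mitotic kinesin, was another, at 28.1 and 60.03 CPM. Several of the lower genes lay near the 2-fold limit: over 15 alternative settings Kif18a was past it in 5, H1f5 in 8, H2ac20 and Kirrel3 in 9 each and H1f1 in 10. One of the contractile side genes of the rule, H2ac8, is itself a replication histone, a class of genes transcribed in S phase. With H2ac8 taken out of the rule there were 833 members, 6 genes were 2-fold or more lower in place of 12, and the log2 ratio was -0.37 in place of -0.55 for the S-phase list, -0.23 in place of -0.37 for G2/M and -0.44 in place of -0.86 for histones.

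The number of cell-cycle UMIs per cell showed where the difference lay. At 2000 UMIs per cell, members had a median of 18 UMIs of the S-phase and G2/M lists and the other A cells 26. The 10th percentiles were 2 and 12, and the 90th percentiles 39 and 38, so the upper ends coincided. Cells with 5 or fewer were 199 of the 695 members (28.6%, 25.3 to 32.2) and 347 of the 7121 other A cells (4.87%, 4.38 to 5.40). The share was 7.15% in mixed cells, 2.37% on the contractile side and 4.51% in B cells. Among the 986 A cells with neither a marker UMI nor a contractile side UMI, it was 4.67% (3.44 to 6.17). By the rule without H2ac8 it was 24.1% of 833 members, and over all A cells with 2 or more marker UMIs 16.3%. The part of the H2ac8 condition in these shares was not tested. Read the other way, 65.0% of the 546 A cells with 5 or fewer had 2 or more marker UMIs, against 25.1% of the remaining A cells. The limit of 5 was set after the values were seen, and the classes on either side of it are ranges.

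**Figure D5:**
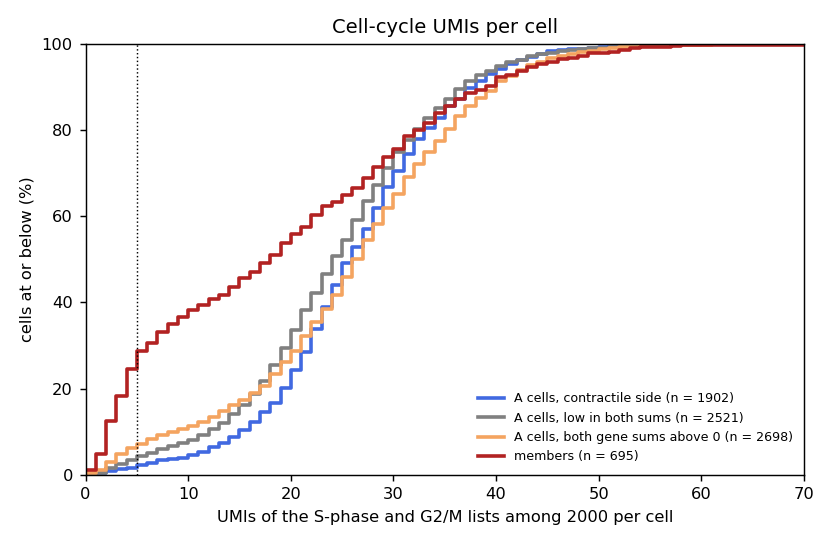
Cumulative share of cells (%) by the number of UMIs of the S-phase and G2/M lists among 2000 per cell, in the members and the other classes of A cells; the dotted line marks 5 UMIs. At 5 UMIs the members stand at 28.6% and the other classes between 2.37% and 7.15%, and the curves meet again above 30 UMIs.

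Lgals4 was highest in the members with few cell-cycle UMIs, and was higher in members than in other A cells on both sides of the limit. Lgals4 stood at 2299 CPM in the 199 members with 5 or fewer and at 945 in the other 496 members. In the other A cells it stood at 1029 CPM with 5 or fewer and at 422 with more. In the same 4 sets Nupr1 stood at 925, 292, 584 and 146 CPM and S100g, a marker of the rule, at 1442, 618, 493 and 120 CPM. Krt19 stood at 1329, 627, 889 and 573 CPM in these sets, Myc, a driver of growth, at 15.1, 47.4, 24.5 and 75.7 CPM, and Tob1 at 244, 136, 154 and 74.6 CPM. All 3 thus differed the same way across the limit in the other A cells as in the members. Cdkn1a, the p53-induced cell-cycle inhibitor, was nearly absent from all 4 sets, at 5.03, 2.02, 2.88 and 2.73 CPM, with 2 UMIs in each set of members. Split into tertiles of cell-cycle UMIs over all A cells (limits 21 and 29), the intestinal list had summed ratios of 1.98, 1.33 and 1.28 between members and other A cells, from the lowest tertile to the highest, and without Lgals4 1.33 (1.24 to 1.42), 1.00 (0.871 to 1.15) and 1.09 (0.979 to 1.22). There were 400, 112 and 183 members in the 3 tertiles.

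Measures of RNA content and quality moved with membership. Mitochondrial UMIs had a median of 3.58% in members and 3.16% in the other A cells, and of 4.24% in the 199 members with few cell-cycle UMIs against 3.33% in the rest, all far below the limit of 15%. Median depth before thinning was 3695 UMIs in those 199 members and 4603 in the other 496, and in the other A cells 3487 with 5 or fewer cell-cycle UMIs and 4784 with more. The 13 mitochondrially encoded genes had a summed ratio of 1.14 (1.13 to 1.15). Malat1, a nuclear noncoding RNA, stood at 11035 CPM in members and 7331 in the other A cells, while Rpl13, a ribosomal protein gene, stood at 5873 and 6674. The 10 ribosomal protein genes of a control list were all below a ratio of 1, with a summed ratio of 0.876, and its other 4 genes (Eef1a1, Eef2, Actb and Gapdh) had 0.922. Of the members, 2.01% were marked as doublets, against 1.85% of the other A cells. The part of these measures in the differences above was not tested.

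Defining genes of other tissues were at or near 0. None of the 15 endocrine or 6 erythroid genes had a UMI in the members. The immune list of 16 genes had 5 UMIs among 1390000, with Ptprc at 0, and the fibroblast list had 5, with Col1a1, Dcn and Pdgfrb at 0. Acinar genes summed to 31.7 CPM in members and 23.9 in the other A cells, all of it from 4 of 22 genes led by Prss2, with Cpa1 and Ctrb1 at 0. The endothelial list had 56.1 CPM in members, mostly Egfl7, with Cdh5 and Kdr at 0, and 45.3 in the other A cells. Tuft cell genes stood at 11.5 and 11.9 CPM. The higher genes were spread over the genome: 19 of the 20 chromosomes with 50 or more counted genes held at least 1 of the 61, at most 6 on any, and the chromosomes' median log2 ratios ran from -0.03 to 0.07.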

How the data were processed

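The deposited matrix holds whole-number UMI counts per gene and barcode from the 3′ v4 chemistry, with no normalization. Per the file headers and the submitters' processing notes, the authors made it with Cell Ranger 8.0.1, on build GRCm39 per those notes. Other filters are not given in the sources used here. The library held 116505698 UMIs over 33696 features.

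Members, classes and 49 gene lists were chosen with earlier results of these data known. Cells were thinned to 2000 UMIs (seed 1; numpy 2.4.6, scipy 1.17.1), summed per class and scaled to CPM. Ratios have exact conditional binomial intervals, levels exact Poisson intervals and shares Clopper-Pearson intervals. Low totals therefore have wide limits. UMIs of a cell are not replicates, and no test was made.

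Genes were named by rule: the rule's genes, the 15 highest and 15 lowest ratios at 50 CPM or more, the 3 most abundant and 4 most different genes of each list, and the 5 with most UMIs (S100a6, Malat1, Ftl1, mt-Co3 and Rpl13). Other genes were chosen after their values were seen, or as defining markers. Doublets were marked with Scrublet (scanpy 1.11.5, expected rate 0.08) and kept. The counting of sums and ratios was checked on simulated data. Chromosome names came from GENCODE M21 and promoters from RefSeq, both on an older build than the counts. Alternatives covered cell filters, doublets, thinning, the rule, the comparison cells, the level minimum and 1 list without its most abundant gene.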

Additional observations from a re-analysis of the deposited data

How the results depend on the processing

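The main values were 8.89% members, 61 genes higher, 12 lower, and log2 ratios of 0.38 (epithelial adhesion), -0.04 (contractile), -0.55 (S phase), -0.37 (G2/M) and 0.85 (intestinal). There were 18 settings, 4 of them (on H2ac8, on the contractile condition and on Lgals4) added after seeing the data. In the 15 that gave values for single genes, the 30 highest and lowest genes kept their direction in 450 of 450 values, and from 18 to 30 of the 30 were past 2-fold. Nothing is read from the kept direction, because the 30 were picked as extremes of the same library and the settings share most of its cells. The contractile list, between -0.16 and 0.035 in all, turned to 0.035 with the rule on thinned counts and to 0.011 with the rule on a random part of the UMIs. The cause of no change below was tested.

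A loose cell filter gave 20 lower genes and 0.90 for the intestinal list. A strict filter gave 6.79% members, 21 lower genes, -0.38 for S phase, -0.16 for G2/M and 0.75 for the intestinal list. Thinning to 3000 UMIs gave 0.29 for adhesion and -0.32 for G2/M. Thinning to 5000 gave -0.33 for S phase, -0.14 for G2/M and 0.79 for the intestinal list. No thinning gave -0.50 and -0.30 for S phase and G2/M, and another seed -0.40 for G2/M. The rule on thinned counts gave 10.06% members, 102 higher and 28 lower genes, -0.58 for G2/M and 0.94 for the intestinal list. The rule on a random part gave 0.26 for adhesion and 0.92 for the intestinal list.

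At least 3 marker UMIs gave 6.24% members, 93 higher and 26 lower genes, and -0.012 (contractile), -0.67 (S phase), -0.47 (G2/M) and 1.005 (intestinal). At least 1 gave 14.69%, 23 higher and 7 lower genes, and 0.25 (adhesion), -0.083 (contractile), -0.35 (S phase), -0.26 (G2/M) and 0.61 (intestinal). Against contractile side cells there were 139 higher and 39 lower genes, and -0.16 (contractile), -0.62 (S phase) and 1.05 (intestinal). A minimum of 10 CPM gave 265 higher and 89 lower genes, and 200 CPM gave 15 and 3. The rule without H2ac8 gave 10.66% members, 6 lower genes, -0.37 (S phase), -0.23 (G2/M) and 0.73 (intestinal), and comparison cells without H2ac8 gave -0.48 (S phase) and -0.32 (G2/M). Without the contractile condition there were 27.92% members, 39 higher and 5 lower genes, and 0.29 (adhesion), -0.00056 (contractile), -0.28 (S phase), -0.077 (G2/M) and 0.60 (intestinal). The intestinal list without Lgals4 had 0.33. Removing marked doublets gave 18 lower genes in place of 12, 68 higher ones, and no share or list ratio outside its counting interval. Depth limits the rarer genes most: Ankrd1 had 19 UMIs in all members together after thinning.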
